A study of Arabidopsis thaliana with 3 samples.

Results

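The 10 genes described here encode SQUAMOSA PROMOTER BINDING PROTEIN-LIKE (SPL) transcription factors that are targets of the microRNA miR156: SPL2, SPL3, SPL4, SPL5, SPL6, SPL9, SPL10, SPL11, SPL13 and SPL15. They were taken by locus identifier, and all 10 were found among the 27374 loci listed. The samples are 3 RNA-seq libraries of whole wild-type seedlings of Arabidopsis thaliana, cultivar Col-0, which form 1 group. The seedlings were 9 days old and were raised on MS medium at 23 °C, under long days (16 h light, 8 h dark). There is no mutant, treatment or second time point, so the comparisons below set the SPL genes against each other and against the rest of the transcriptome. Since separate cultures are not stated for the libraries, each SD and p-value measures only their spread, which may be technical.

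SPL proteins bind DNA through a conserved zinc-binding domain, the SBP domain. In young Arabidopsis plants miR156 and its relative miR157 are abundant and hold the targeted SPL genes down, by cutting their transcripts and by limiting translation. As the plant ages the microRNA declines, SPL activity rises, and leaves change from juvenile to adult form, a step called vegetative phase change. SPL9 and SPL15 activate MIR172B, whose product in turn represses the AP2-like flowering repressors. SPL2, SPL10, SPL11 and SPL13 also promote adult leaf traits, whereas the small proteins SPL3, SPL4 and SPL5 act mainly on floral meristem identity.

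The pairing of microRNA and target is what unites these genes, so both strands are shown. Sequences were read from the RefSeq genome and annotation of TAIR10.1. Of 14 mature miR156 and miR157 sequences annotated outside the 3p arms, 11 share the miR156a-5p seed, bases 2 to 8, and 6 are identical to miR156a-5p over their whole length. The other 3, miR157a-5p, miR157b-5p and miR157c-5p, are identical to each other and carry an extra base at the 5′ end, which shifts the seed. Capitals mark the seed, and sequences run 5′ to 3′.
miR156a-5p: uGACAGAAgagagugagcac
miR157a-5p: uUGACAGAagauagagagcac

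Each of the 10 genes holds a site of 20 bases that is complementary to miR156a-5p with 1 to 3 mismatches. Here capitals mark the bases that form no Watson-Crick pair with miR156a-5p, and positions count from 1 at the 5′ end of the microRNA.
perfect complement: gugcucacucucuucuguca
SPL2, SPL6, SPL9, SPL10, SPL11, SPL13, SPL15: gugcucUcucucuucuguca
SPL3: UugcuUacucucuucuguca
SPL4: CugcucUcucucuucuguca
SPL5: CCgcucUcucucuucuguca

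In 7 members the sequence was the same, with 1 mismatch opposite position 14, and the site lay within the coding part. In SPL3, SPL4 and SPL5 it lay in the 3′ untranslated region and had 2, 2 and 3 mismatches. None of the 10 sites had a mismatch opposite the seed. The mismatches of SPL3 lie opposite positions 15 and 20, and the former is a G:U wobble. Those of SPL4 lie opposite positions 14 and 20, and those of SPL5 opposite 14, 19 and 20. Of 26694 loci in the files that had a RefSeq mRNA sequence, 10 (0.0375%) had a site with at most 2 mismatches. These were the members other than SPL5, and the copy of SPL13 at AT5G50670. The 6 SPL genes that are not miR156 targets had 6 to 8 mismatches at their best position. On the strand opposite to the SPL4 site, at 19807090 to 19807109 of chromosome 1, the annotation places a mature microRNA, miR156i. Likewise miR156j lies opposite to the SPL9 site, at 17589066 to 17589085 of chromosome 2. They are therefore perfect complements of the SPL4 and SPL9 sites by position, and miR156j has 0 mismatches to the site shared by the 7 members.

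**Figure D1:**
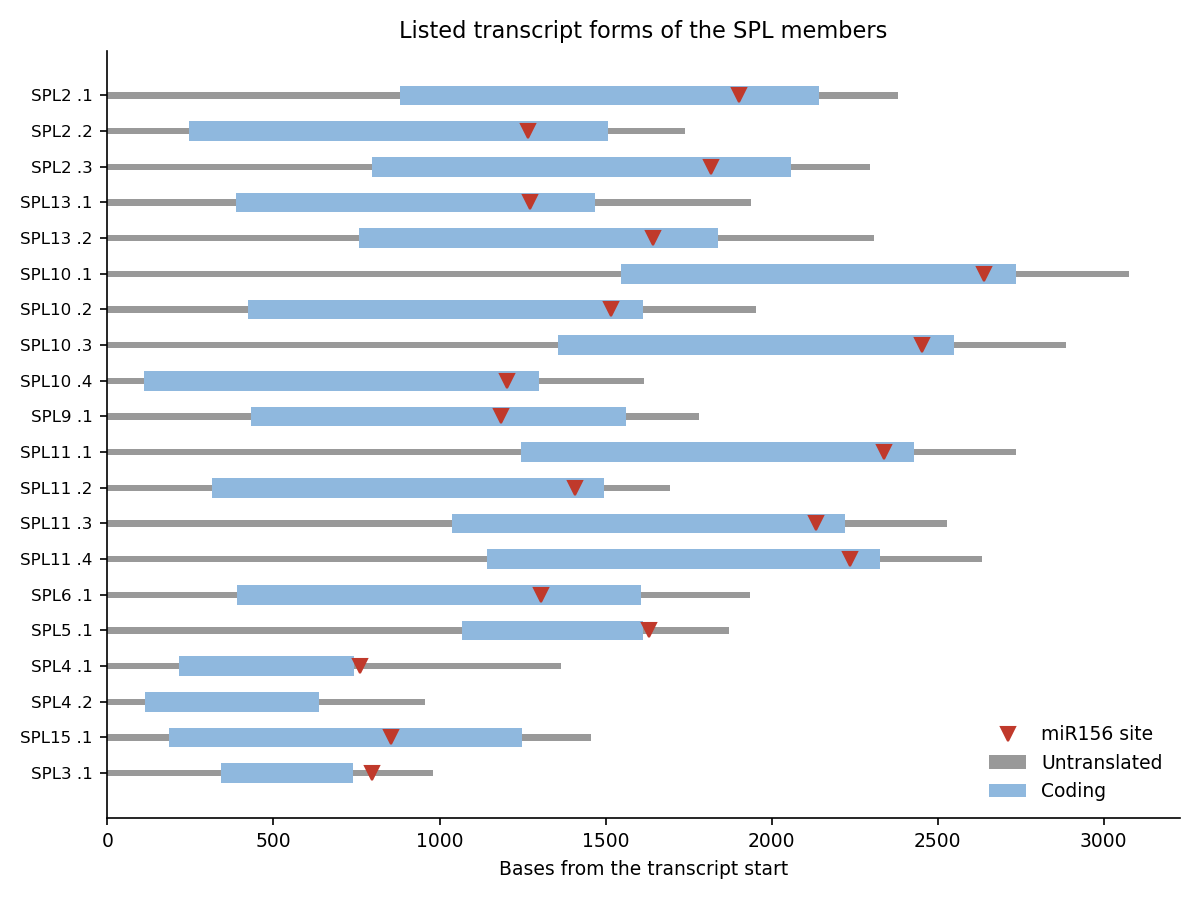
Listed transcript forms of the 10 SPL genes, drawn from the RefSeq annotation, with bases from the transcript start on the horizontal axis. Thick bars are coding parts, thin bars untranslated parts, and triangles the miR156 site. The site sits in the coding part of 7 genes and behind it in SPL3, SPL4 and SPL5, and the SPL4 form AT1G53160.2 has none.

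The values are FPKM, fragments per kilobase of transcript normalised to sequencing depth, summed over the listed transcripts of a locus. Comparing levels between genes rests on the annotated lengths and on how reads were divided between forms. Errors in these that all libraries share are not part of any SE or p-value below. At least 1 FPKM in every library was reached by 9 of the 10 SPL genes, against 63.2% of the 27164 nuclear loci, and SPL3 was the exception. The count was 7 after scaling to an equal sum over all transcripts, and 10 after scaling over nuclear loci or without library 1. Scaling to a fixed total moved all values against the cutoff of 1 FPKM, besides making the libraries equal. Over all transcripts it lowered them, because the sums in the files were higher than that total. Without scaling, thresholds of 2 and 0.5 FPKM also gave counts of 7 and 10. The share of 63.2% holds for the main setting and was not recomputed for the others. Mean levels ran from 10.7 FPKM for SPL2 to 0.995 for SPL3, and their median of 3.76 FPKM was close to the 3.75 FPKM of all nuclear loci. Those loci include 4489 listed at 0 in every library. Nuclear loci with at least 1 FPKM in every library had a higher median, 9.54 FPKM. By percentile of mean level among nuclear loci the members lay between 34.9 (SPL3) and 70.9 (SPL2). In RNA of whole seedlings, expression in fewer cells and less RNA per cell cannot be told apart.

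**Figure D2:**
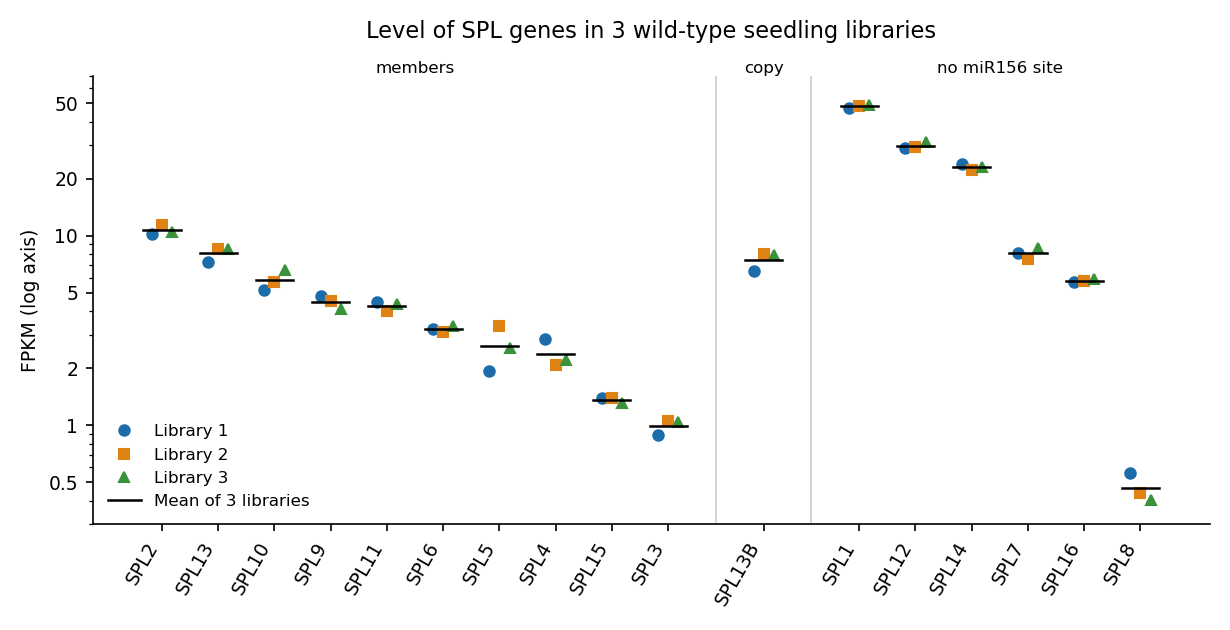
FPKM (log axis) of each SPL gene in the 3 libraries (symbols), with the mean as a bar, for the 10 members, the SPL13 copy and the 6 SPL genes without a miR156 site. Members lie between 0.888 and 11.4 FPKM, and SPL1, SPL12 and SPL14 lie above all of them.

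SPL2, SPL10 and SPL11 form a group of close relatives that shape adult leaves. SPL2 (AT5G43270; chromosome 5, 17360287 to 17363880, minus strand) had 10.2, 11.4 and 10.5 FPKM in libraries 1, 2 and 3, the highest level of the 10. SPL10 (AT1G27370; chromosome 1, 9505112 to 9508542, minus strand) had 5.19, 5.69 and 6.58 FPKM. SPL11 (AT1G27360; chromosome 1, 9500892 to 9504023, plus strand) had 4.49, 4.02 and 4.34 FPKM. No library of SPL2 overlapped with those of SPL10, and none of SPL10 with those of SPL11. SPL10 and SPL11 are neighbours with their 3′ ends facing each other and 1088 bases between them. Only 4.46% of the SPL11 transcript and 3.97% of that of SPL10 matched the other at 90% identity or more, so reads of this pair can mostly be told apart.

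SPL13 (AT5G50570, named SPL13A in the gene table; chromosome 5, 20582083 to 20584721, minus strand), which acts on the first leaves of the seedling, had 7.23, 8.52 and 8.52 FPKM. Its copy SPL13B (AT5G50670), separated from it by 30843 bases, had 6.52, 8.004 and 7.91 FPKM. The stretch of the genome that holds SPL13B and its neighbour AT5G50665 matched 100% of the SPL13 form AT5G50570.1 at 99.9% identity. The other form, AT5G50570.2, was not searched. The split of reads between SPL13 and its copy is therefore uncertain. Their sum was 15.6 ± 1.57 FPKM (SD, n = 3), and 8.09 ± 0.743 for SPL13 alone. Library 1 was the lowest for both copies. The order of SPL13 among the members depends on this split, because SPL13 with its copy lies above SPL2. Of the SPL13 exons, 96 of 2482 bases overlap exons of AT5G50565 on the opposite strand, which had 4.82, 5.18 and 5.25 FPKM.

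SPL9 and SPL15 are the paralogs that activate MIR172B and slow the initiation of leaves. SPL9 (AT2G42200; chromosome 2, 17587169 to 17589671, plus strand) had 4.79, 4.503 and 4.09 FPKM. SPL15 (AT3G57920; chromosome 3, 21444243 to 21446035, minus strand) had 1.39, 1.40 and 1.304 FPKM, below SPL9 in every library. All 1455 exon bases of SPL15 overlap exons of AT3G57910, a gene for a G-patch protein on the opposite strand that had 1.85, 2.29 and 2.19 FPKM. The libraries were made with a strand-preserving kit, but the sources used here do not say whether strand was used in estimating FPKM, so reads of these genes cannot be told apart.

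SPL6 (AT1G69170; chromosome 1, 26005068 to 26007368, plus strand), known for a role in immunity, had 3.22, 3.12 and 3.36 FPKM. The values of the 3 libraries lay close together. SPL6 shares 19 exon bases with AT1G69180 (CRABS CLAW) on the opposite strand, which is listed at 0 in every library.

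SPL3, SPL4 and SPL5 encode short proteins, of 131, 174 and 181 residues by their coding lengths, with little beyond the SBP domain. SPL5 (AT3G15270; chromosome 3, 5140365 to 5142323, minus strand) had 1.93, 3.33 and 2.55 FPKM. SPL4 (AT1G53160; chromosome 1, 19806263 to 19807705, plus strand) had 2.86, 2.07 and 2.197 FPKM. The ranges of SPL4 and SPL5 overlapped, and library 1 was the highest for SPL4 and the lowest for SPL5. SPL3 (AT2G33810; chromosome 2, 14305001 to 14306072, plus strand) had 0.888, 1.05 and 1.04 FPKM, and all 3 libraries lay below those of every other member. Of the SPL5 exons, 477 of 1872 bases overlap exons of AT3G15260, a protein phosphatase 2C gene on the opposite strand with 13.5, 13.9 and 12.2 FPKM. A long noncoding RNA, AT2G33815, is annotated opposite to nearly all of SPL3 and was not analysed here. Shared reads cannot be told apart for these genes either unless strand was used.

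The members were compared in pairs with limma on log2(FPKM + 0.1), using the variances of both genes, and differences are given as the less abundant minus the more abundant member. Of 45 pairs, 42 passed an adjusted p of 0.05, with adjustment over all loci tested against the more abundant member. This adjustment changed p little, for SPL15 with SPL3 from a limma p of 0.0338 to 0.0366. The 45 pairs were not adjusted as a set of their own. Part of this count is set by the spread of levels over the transcriptome. The share of loci called lower was 58.4% against SPL2, 49.6% against SPL13, 40.9% against SPL10, 34.9% against SPL9 and 34.1% against SPL11. It was 28.3% against SPL6, 22.9% against SPL5, 22.4% against SPL4 and 15.5% against SPL15.

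In the order of level, SPL2, SPL13, SPL10, SPL9, SPL11, SPL6, SPL5, SPL4, SPL15 and SPL3, 6 of the 9 steps between neighbours passed the test. SPL13 lay 0.40 (SE 0.0867) below SPL2, with a limma adjusted p of 0.000639, and SPL10 lay 0.47 (SE 0.105) below SPL13, with an adjusted p of 0.000785. With the FPKM of the copy added to SPL13, an alternative chosen after seeing the data, SPL13 lay above SPL2 by 0.53 (limma adjusted p = 3.57e-05) and the difference of SPL10 from SPL13 was -1.41. SPL9 differed from SPL10 by -0.37 (SE 0.110, limma adjusted p = 0.00555) and SPL6 from SPL11 by -0.39 (SE 0.105, limma adjusted p = 0.00284). As deposited, these 4 differences had the same sign in 3 of 3 libraries. The order was taken from the means of the same libraries, so this is not independent support for it. SPL15 lay below SPL4 by a difference of -0.75 (SE 0.162, limma adjusted p = 0.000594). The last step, from SPL15 to SPL3, was -0.42 (SE 0.176, limma adjusted p = 0.0366). It missed the threshold without library 1, 2 or 3, with limma adjusted p-values of 0.190, 0.105 and 0.0632. Without library 3 the step from SPL10 to SPL9 was -0.22 and missed it too (limma adjusted p = 0.107). SPL3 rests on roughly 14 to 17 fragments in a library and SPL15 on roughly 34 to 35. For pairs with either gene, the SE comes from the spread of 3 libraries. It may lie below the noise of counting, which was not modelled, so their p-values may be too small.

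The 3 steps that did not pass were those from SPL9 to SPL11, from SPL6 to SPL5 and from SPL5 to SPL4. SPL11 differed from SPL9 by -0.06, with a 95% interval from -0.28 to 0.17, and was lower in 2 of 3 libraries (limma adjusted p = 0.601). SPL5 differed from SPL6 by -0.33, with an interval from -0.71 to 0.04 (limma adjusted p = 0.0792), and without library 2 this difference was -0.55 and passed (limma adjusted p = 0.0101). SPL4 differed from SPL5 by -0.11, with an interval from -0.52 to 0.30 (limma adjusted p = 0.592). That pair had no settled order, since SPL4 was lower by -0.43 without library 1 (limma adjusted p = 0.0410) and higher by 0.17 without library 2. SPL4 and SPL6, which are not neighbours, differed by -0.44 (SE 0.139, limma adjusted p = 0.00962), a call that was lost without library 2 and without library 3, with adjusted p-values of 0.0508 and 0.0698. The intervals for SPL6 with SPL5 and SPL5 with SPL4 include differences as large as the called step of -0.37 from SPL10 to SPL9, whereas that for SPL9 with SPL11 ends at -0.28.

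**Figure D3:**
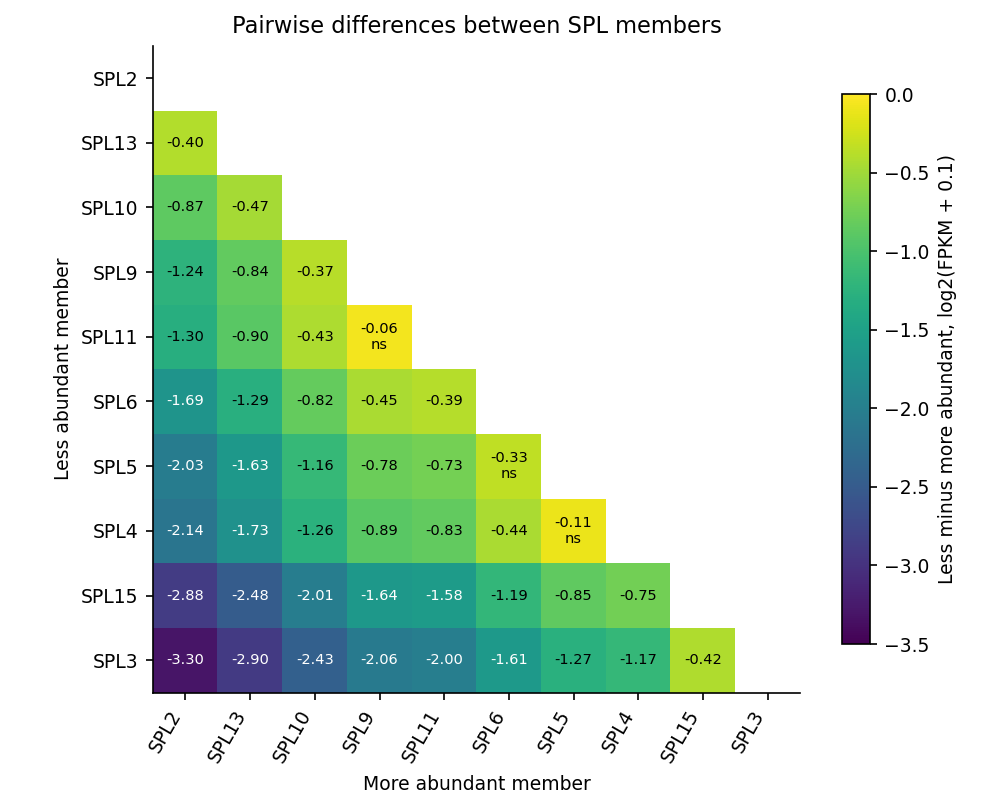
Difference between each pair of members on the log2(FPKM + 0.1) scale, less abundant minus more abundant, with members in order of mean level. Pairs marked ns did not pass an adjusted p of 0.05, and they are SPL9 with SPL11, SPL6 with SPL5 and SPL5 with SPL4. Differences reach -3.30 between SPL2 and SPL3.

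Among paralogs the differences were unequal in size. SPL15 lay below SPL9 by a difference of -1.64 (SE 0.135), a ratio of 3.11 on the log2(FPKM + 0.1) scale (limma adjusted p = 1.99e-07). SPL10 differed from SPL2 by -0.87 (SE 0.0968, limma adjusted p = 2.37e-06), and SPL11 from SPL10 by -0.43 (SE 0.107, limma adjusted p = 0.00185). SPL3 differed from SPL5 by -1.27 (SE 0.2005, limma adjusted p = 4.02e-05) and from SPL4 by -1.17 (SE 0.178, limma adjusted p = 3.03e-05).

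Summed over the 10 genes, SPL transcripts came to 42.1, 45.1 and 44.5 FPKM in libraries 1, 2 and 3. This sum leaves out the copy SPL13B, with a mean of 7.48 FPKM, although its split from SPL13 is uncertain. SPL2, SPL10 and SPL11 together held 47.3 ± 0.725% of this sum (SD, n = 3), SPL13 18.4 ± 1.08%, SPL9 and SPL15 13.3 ± 1.28%, SPL6 7.37 ± 0.385%, and SPL3, SPL4 and SPL5 13.6 ± 0.655%. The 6 genes that promote adult leaf traits (SPL2, SPL9, SPL10, SPL11, SPL13 and SPL15) had 33.2, 35.5 and 35.3 FPKM, against 5.68, 6.45 and 5.80 for SPL3, SPL4 and SPL5. The log2 ratio of these sums was 2.54 ± 0.07 (SD, n = 3), a ratio of 5.81, and 2.16 ± 0.08 without SPL13. As a difference of mean log2(FPKM + 0.1) per gene it was 1.37 ± 0.07, a measure that, unlike the sum, does not grow with the number of genes in a group (6 and 3). With the copy counted as SPL13, the share of SPL13 and the ratio of the sums would be higher, and the other shares lower. These values were not computed. The members with the site in the 3′ untranslated region ranged from 0.995 to 2.60 FPKM in mean level and those with it in the coding part from 1.36 to 10.7, so the ranges overlapped through SPL15.

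Of the 10 genes, 5 were listed with more than 1 transcript form, and 19 of the 20 forms listed carry the miR156 site. The exception was AT1G53160.2, a form of SPL4 with 3 exons in the RefSeq annotation against 2 in AT1G53160.1. It has the same coding sequence, for 174 residues, and a different 3′ untranslated region without the site. It had 0.244, 0.744 and 0.369 FPKM, or 8.51%, 35.9% and 16.8% of SPL4 FPKM. AT1G53160.1, with the site, had 2.62, 1.33 and 1.83 FPKM and was the more abundant in each library.

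The forms of SPL2, SPL10, SPL11 and SPL13 encode, within each gene, the same protein and differ in their untranslated regions. For SPL2, AT5G43270.2 led in every library with 6.47, 5.55 and 6.503 FPKM. AT5G43270.3 had 2.51, 5.22 and 3.41, and AT5G43270.1 had 1.18, 0.624 and 0.606. The leading form has the shortest 5′ untranslated region, with coding starting at base 247, against 798 in AT5G43270.3 and 882 in AT5G43270.1. For SPL10, AT1G27370.1, the longest of the listed forms, led with 2.35, 2.91 and 3.06 FPKM. AT1G27370.2 and AT1G27370.3 had means of 1.32 and 1.59 FPKM, and AT1G27370.4 was listed at 0 in library 1. SPL11 was led by AT1G27360.1 at 2.85 ± 0.176 FPKM (SD, n = 3), which held 66.8 ± 8.03% of the gene. AT1G27360.4 ranged from 0.517 to 1.79 FPKM, and AT1G27360.2 and AT1G27360.3 were each listed at 0 in 2 libraries. SPL13 was led by AT5G50570.2, with 5.07, 5.48 and 4.498 FPKM against 2.16, 3.04 and 4.02 for AT5G50570.1. The FPKM of a form rests on how reads of shared exons were divided.

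**Figure D4:**
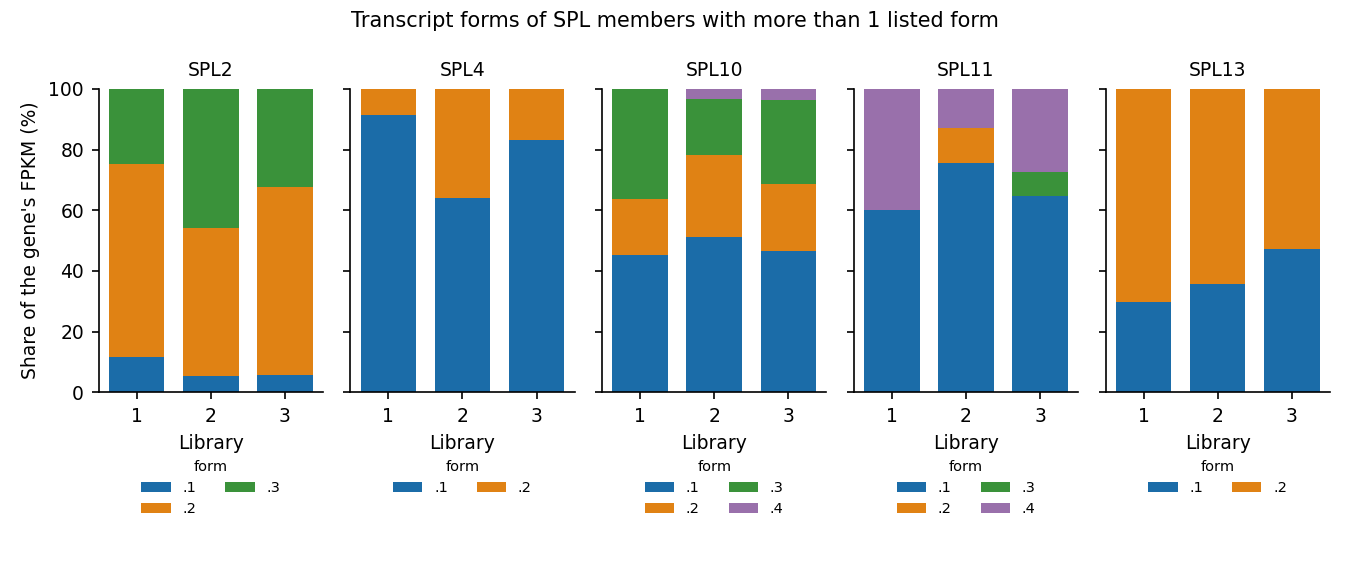
Share of each gene's FPKM (percent) by transcript form in libraries 1, 2 and 3, for the 5 members with more than 1 listed form. The share of the site-free SPL4 form AT1G53160.2 runs from 8.51% to 35.9%, and AT5G43270.2 of SPL2 holds 48.7% to 63.7%.

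In none of the 10 genes were the highest and lowest library more than 1 apart on the log2(FPKM + 0.1) scale, against 6.35% of the 21199 loci with a mean of at least 0.1 FPKM, a background too low for a count over 10 genes to stand apart from it. SPL5 varied most, with an SD of 0.38 on that scale, larger than that of 91.7% of the 1000 nuclear loci nearest in level. SPL4 had an SD of 0.24 (69.4%) and SPL10 of 0.17 (77.9%). The smallest SDs were those of SPL6 and SPL15, both 0.05, which exceeded those of 8.4% and 3.3% of loci of similar level. The low members rest on few reads. Depths were estimated from steps in the FPKM of low genes, within a preset window. They came to about 20.3, 19.5 and 20.8 megafragments in libraries 1, 2 and 3. With RefSeq lengths this puts SPL3 at roughly 14 to 17 fragments in a library and SPL15 at roughly 34 to 35, against 360 to 406 for SPL2. With so few fragments, the small SD of SPL15 over 3 libraries does not show that its level is steady.

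**Figure D5:**
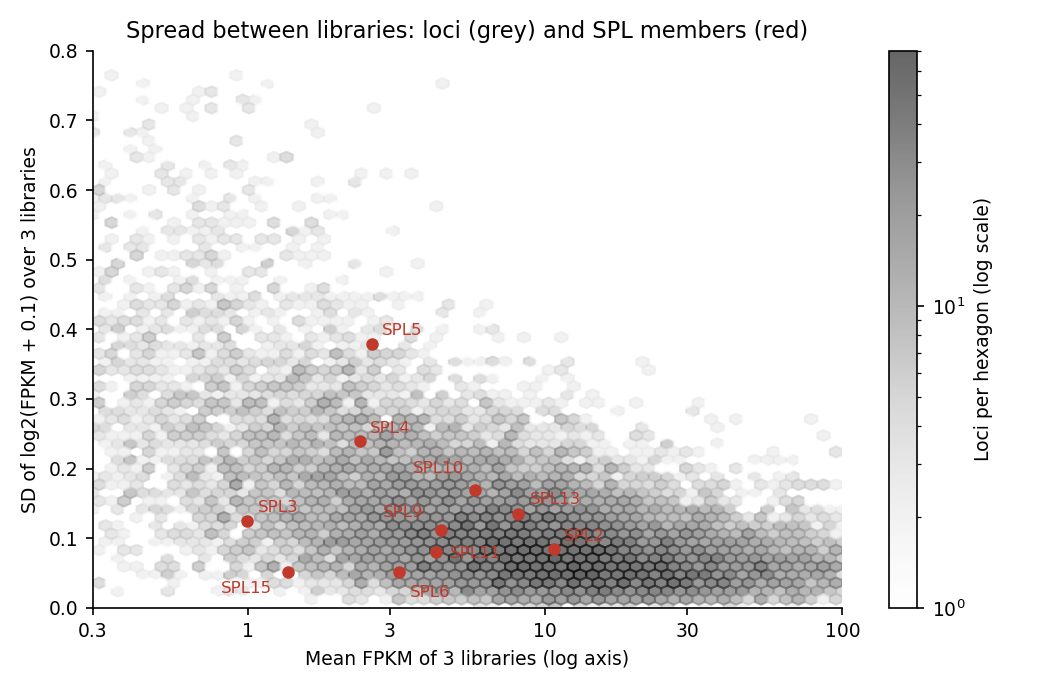
SD of log2(FPKM + 0.1) over the 3 libraries against mean FPKM (log axis) for loci between 0.3 and 100 FPKM with an SD of at most 0.8 (grey hexagons, shaded by number of loci) and the 10 SPL genes (red). SPL5 lies highest of the members at 0.38, and SPL6 and SPL15 lowest at 0.05.

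The 6 SPL genes without a miR156 site had a median of 15.6 FPKM, against 3.76 for the 10 targets. SPL1, SPL12 and SPL14, large proteins with ankyrin repeats, had 48.3 ± 1.09, 29.9 ± 1.22 and 23.1 ± 0.724 FPKM (SD, n = 3), and in every library they exceeded all targets. The lowest of the 6 was SPL8, a regulator of anther development, at 0.467 ± 0.0824 FPKM. SPL7, the copper-response regulator, at 8.09 ± 0.525, and SPL16, at 5.79 ± 0.0856, lay within the range of the targets. The groups thus overlapped, and 5 of the 6 had at least 1 FPKM in every library, against 63.2% of all nuclear loci. The difference between these lists was not tested.

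Downstream of the SPL factors, the 6 AP2-like targets of miR172, which delay flowering, each had at least 1 FPKM in every library, with a median of 6.596 FPKM. TOE1 had 19.6 ± 2.61 FPKM (SD, n = 3), TOE2 9.95 ± 0.646, AP2 7.31 ± 0.460, SNZ 5.88 ± 0.287, SMZ 3.57 ± 0.426 and TOE3 2.48 ± 0.561. Of 7 flowering and meristem identity genes that SPL proteins act on or with, 2 reached 1 FPKM in every library. These were the flowering integrator SOC1, at 12.3 ± 0.470 FPKM, and FD, the bZIP partner of FT, at 2.28 ± 0.634. AGL42 had 0.850 ± 0.286, FUL 0.384 ± 0.155, the florigen gene FT 0.277 ± 0.157, LFY 0.0778 ± 0.0273 and AP1, listed at 0 in library 1, 0.10 and 0.0467 in libraries 2 and 3. The trichome repressors TCL1 and TRY, activated by SPL9, had 1.26 ± 0.379 and 0.746 ± 0.183 FPKM, and neither reached 1 FPKM in every library. The share of all nuclear loci that reached this level was 63.2%, and the lists were not tested against it.

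Upstream, levels of the 14 MIR156 and MIR157 loci and the 5 MIR172 loci were not analysed here. The level of the microRNAs themselves is therefore not known from these values. All 8 genes for microRNA processing and action passed 1 FPKM in each library, against 63.2% of all nuclear loci. AGO1, the effector of most plant microRNAs, had 42.5 ± 2.00 FPKM (SD, n = 3) and SE 17.6 ± 0.775. HYL1 had 7.11 ± 0.705, DCL1, the enzyme that cuts the precursors, 6.11 ± 0.171, HST 5.58 ± 0.497 and SQN, a cyclophilin that promotes AGO1 activity, 4.91 ± 0.792. HEN1, which methylates microRNA ends, had 3.90 ± 0.334, and AGO7, which acts through another small RNA pathway on phase change, 2.52 ± 0.166. Of 13 regulators of MIR156 genes, 11 reached 1 FPKM in each library, with a median of 10.3 FPKM. Neither list was tested against the share of 63.2% among all nuclear loci. The chromatin remodeller BRM and the glucose sensor HXK1 were highest, at 20.8 ± 0.167 and 16.6 ± 0.261 FPKM, and the embryo regulator FUS3 was lowest, at 0.0851 ± 0.0450. AGL15, a MADS factor, had the largest SD on the log2(FPKM + 0.1) scale, 0.49, with 1.56, 1.28 and 0.755 FPKM.

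By distance of log2(FPKM + 0.1) over the 3 libraries, the nuclear loci nearest to SPL9 were VPS2.3 (AT1G03950), at a Euclidean distance of 0.03, and AT5G49000, a kelch-repeat protein gene, at 0.04. Those nearest to SPL3 were AT5G48060, a C2-domain protein gene, at 0.04 and AT2G12190, a cytochrome P450 gene, at 0.09. With 3 libraries of 1 group this likeness is mostly one of level. The tissue label was met by markers of leaf (RBCS1A 6896 ± 241 FPKM, CAB1 14284 ± 737) and root (PYK10 1009 ± 52.9, SHR 7.06 ± 0.718, SCR 6.53 ± 0.435). Of the shoot meristem markers STM had 4.64 ± 0.385 FPKM, and WUS and CLV3 were listed at 0 in all 3 libraries. The flower markers AG and PI had 0.116 ± 0.0677 and 1.12 ± 0.480, and the seed genes AT2S3, listed at 0 in library 2, and cruciferin C (AT4G28520) had at most 0.0874 and 0.162 FPKM.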

How the data were processed

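RNA was measured in 3 wild-type libraries, which the titles of the labels number in turn and which are taken here as replicates. Each title also ends in the same number in brackets, which is not explained. Per the labels' protocols, ribosomal RNA was removed before directional libraries were made for Illumina sequencing. The deposited files hold 1 value for each of 36172 transcripts, read here as the authors' FPKM: the headers name no unit, and the values are not whole and sum to 2064646, 2000114 and 1957870. Per the submitters' processing notes, TopHat2 2.0.9, Cufflinks 2.1.1 and TAIR10 were used. For annotation, filters and strand setting: not given in the sources used here.

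The 35337 transcripts with a TAIR locus were summed per locus. Read depth is not stated. In low genes with 1 transcript, FPKM ratios between libraries clustered at relative depths of 1.04 (library 1 over 2) and 0.969 (1 over 3). Within the preset window of depths, steps of low values fitted 1 fragment in 30.3% to 34.0% of the genes examined. Whole reads could therefore not be recovered, and a count test was left out. Intervals cover the spread between libraries only.

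The members and lists were chosen with earlier results of these data known. Loci with a mean of at least 0.1 FPKM entered a limma 3.58.1 intercept fit (R 4.3.3) on log2(FPKM + 0.1) with a mean-variance trend. For a pair, the difference was divided by the SE from both moderated variances, with Benjamini-Hochberg adjustment over all loci tested against the more abundant member. On this scale the fold of a low gene is understated. In simulated data with 21199 loci, pairs 0.25, 0.5 and 1 apart were called in 40.5%, 80.6% and 100% of cases, and equal pairs in 5.45%. Variances and errors were drawn from the fitted model itself, so these rates hold under that model and do not test it. Noise of low counts and of the split between forms was not simulated.

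Genes named were the members with their forms, the SPL13 copy, SPL genes without a site, all members of lists of up to 8, of the longer list the 2 highest, the lowest and the most variable, and for SPL9 and SPL3 the 2 nearest nuclear loci. Loci that overlap or adjoin a member, other loci with a site and marker genes are named outside this rule. Gene names, structures, coordinates and sequences came from RefSeq TAIR10.1, which matched 26702 of 27374 loci. It differs from TAIR10 in name, and forms may differ between annotations. Second matches were sought for the first listed form of each gene, with BLAST+ 2.17.0 at 90% identity. Sites are ungapped matches to the complement of miR156a-5p with at most 3 mismatches.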

Additional observations from a re-analysis of the deposited data

How the results depend on the processing

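Of the 45 pairs, 40 kept direction and call under the settings other than the sum of SPL13 with its copy. For 32 these were 11 settings, and for 8 pairs with SPL3 they were 10, because SPL3 left the fit under a filter at a mean of 1 FPKM. The 5 others are given in the report. The count of pairs called stayed between 33, under that filter, and 42. The count of neighbouring steps stayed between 4 and 6, and neither moved by over 1.5 times under another pseudocount, filter, scaling, variance model or ratio within libraries. SPL4 minus SPL5, -0.11, ran from -0.43 to 0.17 without 1 replicate. Scaled to an equal sum over all transcripts, which also lowered all values against the pseudocount, SPL3 minus SPL15 missed the threshold (limma adjusted p = 0.0506). The summed log2 ratio of adult-trait genes to SPL3, SPL4 and SPL5, 2.54, was 1.37 as a mean of logs and 2.16 without SPL13, and lay between 2.505 and 2.58 without 1 replicate. It was not computed with the SPL13 copy added. Summed with its copy, SPL13 had 15.6 in place of 8.09 FPKM. SPL13 minus SPL2 then turned to 0.53, and the 8 other pairs with SPL13 and all 36 without it kept direction and call (chosen after seeing the data).

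The number of flowering genes with at least 1 FPKM in every library, 2, was 1 after scaling over all transcripts or at a threshold of 2 FPKM, and 3 after scaling over nuclear loci or at 0.5 FPKM. That of the trichome repressors, 0, was 1 after scaling over nuclear loci, 2 at a threshold of 0.5 FPKM, and 0 to 1 without 1 replicate (1 without replicate 2). Scaling to a fixed total moves all values against the cutoff, as a change of threshold does, so these counts do not show an effect of making the libraries equal. The causes were not tested beyond what these settings change by construction. No paired analysis was possible because the libraries form 1 group. Low levels limit SPL3 and SPL15 most, and the split of reads limits SPL13 and all transcript forms. Unless strand was used, overlap with genes on the opposite strand also limits SPL15, SPL5 and SPL3, and SPL13 in 96 of its 2482 exon bases. The same holds for the pairs and sums that include them.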

Other observations

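Allowing 3 mismatches to the complement of miR156a-5p, 13 loci (0.0487%) held a site, of which 11 were the 10 SPL genes and SPL13B. The other 2 were AT3G28690, a protein kinase gene with 24.7, 26.7 and 27.9 FPKM, and AT3G47170, an acyl-transferase family gene listed at 0 in all 3 libraries. They were chosen after their values were seen, and a match of letters does not show that the microRNA acts there.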
